A study of Mus musculus with 4 samples.

Results

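Hepatoblasts are the fetal liver cells that go on to form hepatocytes and bile duct cells, and they secrete most of the protein of the fetal plasma. The 10 genes described here, Alb, Afp, Apoa1, Apoa2, Apob, Ttr, Fga, Fgb, Ahsg and Rbp4, were chosen by name as plasma protein genes of these cells, with no measured value in the rule. All 10 were found among the 39186 genes of the table, and all 10 were among the 32428 genes tested. RNA sequencing was run on LSK cells (lineage-negative, Sca-1-positive, c-Kit-positive stem and progenitor cells) sorted from the fetal livers of C57BL/6 mouse embryos, with 2 Pich-WT and 2 Pich-KO samples. Pich, whose symbol in the table is Ercc6l, is an X-linked gene for a DNA translocase that acts in mitosis. The Pich-KO line carries a small TALEN-made deletion at the start of the second exon in every cell of the embryo, and Pich-WT embryos carry the intact gene. No other allele and no treatment is given for either group. The sorts used mid-gestation embryos by the methods, while the labels give no age. The labels also do not say whether samples of a group came from separate embryos. P-values therefore measure only the spread between these samples, which may be technical at least in part.

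The liver is the main site of blood formation at mid-gestation, and hematopoietic cells there lie among hepatoblasts. Albumin and alpha-fetoprotein carry fatty acids, hormones and metals in plasma, apolipoproteins build lipoprotein particles, and fibrinogen is the substrate of clotting. In hepatoblasts these genes are switched on by liver transcription factors such as those of the HNF4, FOXA and C/EBP families, and Afp is high before birth and silenced after it. The study's methods list CD4, CD8, Gr-1, B220 and Ter119 among the lineage antibodies, and no antibody to a hepatoblast protein.

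Reads assigned to genes ranged from 14703215 to 20933919 per sample. Values below are normalized read counts, the authors' read counts divided by a size factor for each sample. Ercc6l stood at 1142 and 1232 in the Pich-KO samples against 772 and 661 in the Pich-WT samples, and counts over the whole gene do not check a small deletion. Reads on 4 Y-linked genes numbered 1607 and 2848 in Pich-KO, 2753 in Pich-WT sample 1 and 0 in Pich-WT sample 2. By these reads Pich-WT sample 2 showed no male cells, while every other sample did. Sex thus differed within Pich-WT and was not balanced between the groups. Its part in the results below was not tested. Each result below that passed the test was also fitted without each sample.

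All 10 plasma protein genes had lower mean values in Pich-KO than in Pich-WT. The difference passed the threshold (adjusted p under 0.05) for 5 of them, Ahsg, Apoa1, Ttr, Alb and Apoa2, which stood between 42.0% and 57.0% of their Pich-WT mean. It did not pass for Rbp4, Afp, Fga, Apob and Fgb, and 0 members were higher by limma. This count was also 0 at an unadjusted p under 0.05, by edgeR and by DESeq2. Among all genes tested 9.6% were lower in Pich-KO and 7.58% were higher, and among genes with at least 10 reads in every sample, to which all 10 members belong, 22.5% were lower. The test was limma on log2(normalized count + 1) with Benjamini-Hochberg adjustment over all genes tested, so fold changes are on that scale. The median log2 fold change of the members was -0.74, and that of all genes tested was 0.02. Leaving out any 1 of the 4 samples left 0 of the 5 calls, with 4 to 7 members at an unadjusted p under 0.05. An exact permutation test of 2 samples against 2 cannot give a p below 0.333, so none was run on single genes.

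**Figure D1:**
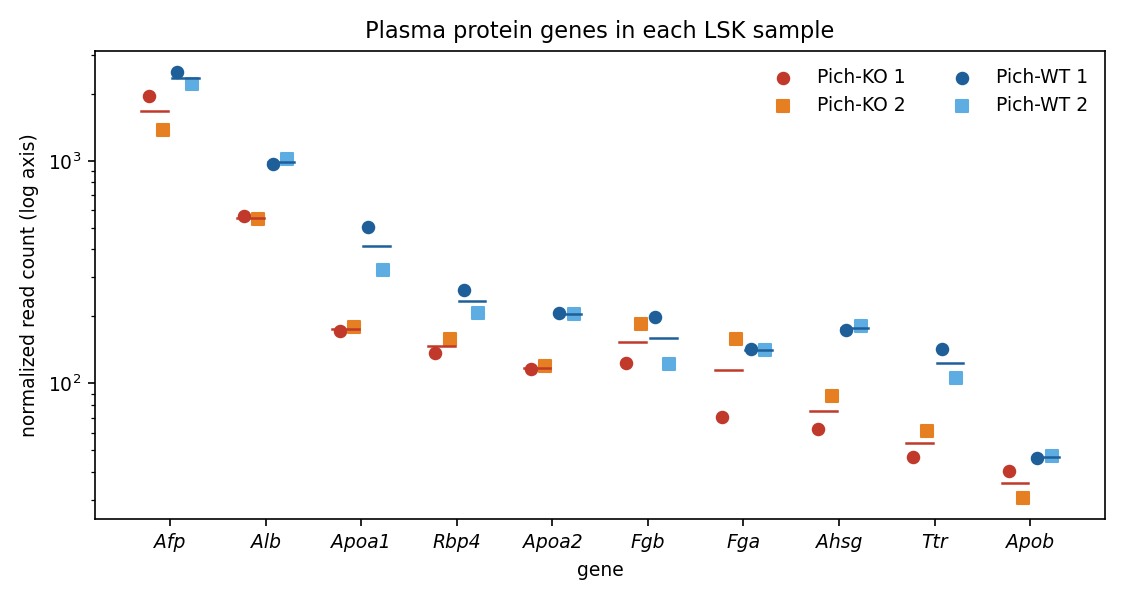
Normalized read counts of the 10 plasma protein genes in each of the 4 samples, on a log axis, with points for samples and short lines for group means. Both Pich-KO samples lie below both Pich-WT samples for 8 genes, and the groups overlap for Fga and Fgb.

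**Figure D2:**
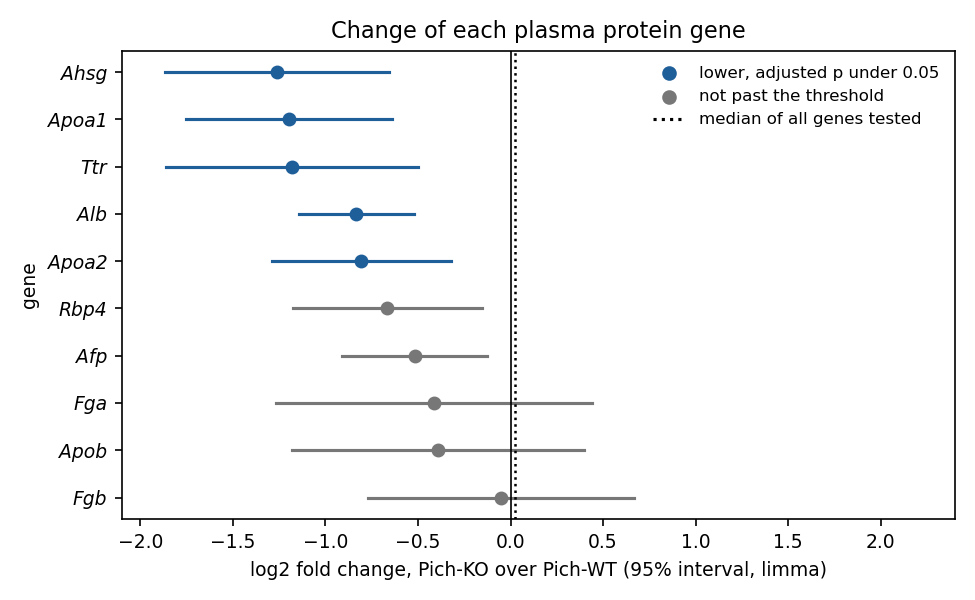
Log2 fold change of each gene in Pich-KO over Pich-WT, with 95% intervals from limma. The intervals of Ahsg, Apoa1, Ttr, Alb, Apoa2, Rbp4 and Afp lie below 0, and those of Fga, Apob and Fgb cross it.

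Both Pich-KO samples were below both Pich-WT samples for 8 of the 10 genes, against 27.2% of all genes tested. That share was not taken for genes with at least 10 reads in every sample, to which all 10 members belong. In bulk RNA of sorted cells, fewer cells of a type and less RNA per cell cannot be told apart. Summed over the 10 genes, Pich-WT had 6592 and 4556 reads and Pich-KO had 3013 and 2557. This was 0.0198% (Wilson 95% interval 0.0191 to 0.0205) and 0.0174% (0.0167 to 0.0181) of all reads in Pich-KO, and 0.0315% (0.0307 to 0.0323) and 0.0293% (0.0284 to 0.0301) in Pich-WT. The intervals cover counting error only. Plasma protein reads were thus a small share of every library, with both Pich-KO shares below both Pich-WT shares.

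The albumin family opens the account, because its members are the most abundant. The sequence just before the start of Alb and Afp, the neighbouring pair that leads the set, is shown with each CCAAT box (or its reverse complement ATTGG), a common promoter element, in capitals. Each run is the 250 bases before the RefSeq start site in GRCm38.p6, read 5′ to 3′, at chr5:90460620-90460869 for Alb and chr5:90490464-90490713 for Afp, both on the plus strand.
Alb: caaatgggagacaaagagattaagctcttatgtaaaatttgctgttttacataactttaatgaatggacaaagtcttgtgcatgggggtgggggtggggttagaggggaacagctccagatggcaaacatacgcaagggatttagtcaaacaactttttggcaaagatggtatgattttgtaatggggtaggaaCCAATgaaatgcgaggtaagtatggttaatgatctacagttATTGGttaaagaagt
Afp: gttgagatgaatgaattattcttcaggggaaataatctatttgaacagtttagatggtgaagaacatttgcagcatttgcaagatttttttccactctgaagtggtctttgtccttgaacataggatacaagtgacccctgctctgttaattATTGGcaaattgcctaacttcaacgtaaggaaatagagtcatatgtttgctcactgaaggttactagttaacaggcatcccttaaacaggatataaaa
The box lies at -56 and -15 from the RefSeq start site in Alb and at -98 in Afp. In the authors' table both genes start further downstream, at 90460897 for Alb and 90490737 for Afp. Distances from those starts are therefore longer. In all, 5 of the 9 members with a RefSeq promoter window (250 bases before to 50 after the start) held CCAAT, against 37.4% of all 32851 windows. These were Alb, Afp, Apoa2, Ahsg and Rbp4, of which Alb, Apoa2 and Ahsg passed the test above. The FOXA motif TGTTTAC was found in Apoa2 and Rbp4 (3.65% of all windows), and the HNF4 motif CAAAGTCC in 0 of the 9 windows (1.42% of all). TATAAA was found in 3, Afp, Apoa2 and Apob (13.6% of all). Both strands were searched for each motif, and no CCAAT box shared a base with another motif. A match describes these letters, not a bound site.

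Alb (ENSMUSG00000029368, chr5:90460897-90476602, plus strand) encodes albumin, the main carrier protein of plasma. Its normalized count was 563 and 548 in the Pich-KO samples against 964 and 1015 in the Pich-WT samples. The groups stood apart, with little spread inside either, at 555 ± 10.5 and 990 ± 35.8 (SD, n = 2 each). Alb fell, with a log2 fold change of -0.83 (SE 0.13, 95% interval -1.14 to -0.52, limma adjusted p = 0.0040). The log2 fold change stayed between -0.87 and -0.80 when any 1 sample was left out.

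Afp (ENSMUSG00000054932, chr5:90490737-90508907, plus strand) encodes alpha-fetoprotein, the fetal relative of albumin. It was the most abundant member, at 1957 and 1379 in the Pich-KO samples against 2509 and 2207 in the Pich-WT samples. The groups did not overlap, but the Pich-KO samples lay further apart from each other than the Pich-WT samples did. The log2 fold change was -0.52 (SE 0.17, 95% interval -0.91 to -0.12), which missed the threshold at a limma adjusted p of 0.0795. Its values without 1 sample ranged from -0.77 to -0.27. Afp passed under 3 alternatives, DESeq2 (adjusted p = 0.0289), the filter of 10 reads in every sample (0.0468) and a replicate block (0.00214). The block treats same-numbered samples as pairs, although these did not deviate together.

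Alb and Afp are neighbours, with 14134 bases between them in the coordinates of the table. A further pair of genes of the family flanks them, Gc for the vitamin D binding protein and Afm for afamin. Gc lies on the minus strand with 1002998 bases between it and Alb, so it is not an immediate neighbour. Gc stood at 30.5 and 21.6 in Pich-KO against 18.8 and 27 in Pich-WT, with a log2 fold change of 0.18 (limma adjusted p = 0.837). Afm, whose start lies 10024 bases beyond Afp, had 12.0 and 2.27 in Pich-KO against 4.69 and 4 in Pich-WT (adjusted p = 0.864). The groups overlapped for both flanking genes, and both were far less abundant than Alb and Afp.

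Per unit of gene length, Afp exceeded Alb in every sample. The ratio of Afp to Alb was 2.42 and 1.75 in the Pich-KO samples against 1.81 and 1.51 in the Pich-WT samples, so the groups overlapped. On a per-length scale (TPM), from recovered reads and the gene lengths of the table, Afp stood at a mean of 86.1 in Pich-KO and 126 in Pich-WT. Alb stood at 41.1 and 76.5 on that scale. Afp ranked 1991 and 2747 among all genes in the Pich-KO samples against 1530 and 1677 in the Pich-WT samples, so many genes of the sorted cells were above it.

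Ttr (ENSMUSG00000061808, chr18:20665250-20674324, plus strand) encodes transthyretin, which carries thyroxine and holds retinol-binding protein in plasma. The Pich-KO samples had 46.9 and 61.4 and the Pich-WT samples 142 and 106. No sample of one group entered the range of the other. Ttr fell to 43.6% of the Pich-WT mean, with a log2 fold change of -1.18 (SE 0.29, 95% interval -1.86 to -0.50, limma adjusted p = 0.0288). Without the filter on low values the call was lost (adjusted p = 0.0592).

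Rbp4 (ENSMUSG00000024990, chr19:38116620-38125321, minus strand) encodes the retinol-binding protein that travels with transthyretin. Its values were 136 and 158 in Pich-KO against 262 and 208 in Pich-WT. These groups did not overlap either, yet the log2 fold change of -0.67 (SE 0.22, 95% interval -1.18 to -0.15) missed the threshold (limma adjusted p = 0.0827). With the replicate block, which treats same-numbered samples as pairs although they did not deviate together, the limma adjusted p was 0.0477. The ratio of Rbp4 to Ttr per length was 2.73 and 2.42 in Pich-KO against 1.73 and 1.84 in Pich-WT, so both Pich-KO ratios were the higher ones. That difference in ratio was not tested.

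Apoa1 (ENSMUSG00000032083, chr9:46228580-46230466, plus strand) encodes the main protein of high-density lipoprotein. It had 171 and 180 in the Pich-KO samples against 505 and 323 in the Pich-WT samples. Here the Pich-WT samples were the more variable pair, and the lower of them was still above both Pich-KO samples. Apoa1 fell to 42.4% of the Pich-WT mean, with a log2 fold change of -1.20 (SE 0.24, 95% interval -1.76 to -0.64, limma adjusted p = 0.0112). Without 1 sample the log2 fold change ran from -1.52 to -0.88.

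Apoa2 (ENSMUSG00000005681, chr1:171225054-171226379, plus strand) encodes the other major protein of high-density lipoprotein. It had 116 and 119 in Pich-KO against 207 and 205 in Pich-WT, with little spread in either group. Apoa2 fell to 57.0% of the Pich-WT mean (log2 fold change -0.81, SE 0.21, limma adjusted p = 0.0334). Apoa1 per length stood at 0.644 and 0.654 of Apoa2 in Pich-KO and at 1.06 and 0.685 in Pich-WT. The Pich-WT samples therefore differed from each other in this ratio more than the Pich-KO samples did.

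Apob (ENSMUSG00000020609, chr12:7977648-8016835, plus strand) encodes the large scaffold protein of very-low-density and low-density lipoprotein. It was the least abundant member, with 40.4 and 30.7 in Pich-KO against 46.1 and 47 in Pich-WT, or 37, 27, 59 and 47 reads. The groups did not overlap, but the log2 fold change was -0.39 with an interval from -1.18 to 0.40 (limma adjusted p = 0.522). The interval of the difference therefore spans 0. Next to Apoa1 on its chromosome, Apoa4 was listed at 2.18 and 0 in Pich-KO against 0 and 6 in Pich-WT. Apoa5 was listed at 4.36 and 0 and at 0.782 and 1, so both neighbours were at or near the limit of detection.

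Genes that act on lipoproteins were read beside the apolipoproteins. Of 13 such genes, 3 were lower, with a median log2 fold change of -0.31. Mttp, whose product loads lipid onto apolipoprotein B, had 147 and 180 in Pich-KO against 133 and 129 in Pich-WT (log2 fold change 0.31, limma adjusted p = 0.437). Apobec1, which edits the Apob transcript, fell from 794 and 780 to 562 and 505 (log2 fold change -0.56, adjusted p = 0.0304). Pltp, the phospholipid transfer protein gene, fell most, from 671 and 690 to 14.2 and 12.5 (log2 fold change -5.57).

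Fga (ENSMUSG00000028001, chr3:83026076-83033627, plus strand) and Fgb (ENSMUSG00000033831, chr3:83040141-83049863, minus strand) encode the alpha and beta chains of fibrinogen. Fga had 70.9 and 159 in Pich-KO against 143 and 141 in Pich-WT. The lower Pich-KO sample stood alone and the other lay above both Pich-WT samples. These were 65 reads in Pich-KO sample 1 and 140 in Pich-KO sample 2. The log2 fold change was -0.41 (95% interval -1.27 to 0.44, limma adjusted p = 0.528), and it was 0.16 without Pich-KO sample 1.

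Fgb had 123 and 184 in Pich-KO against 199 and 122 in Pich-WT. Each group held 1 high and 1 low sample, and the group means of 154 and 161 lay within the spread of either pair. The log2 fold change was -0.05 (95% interval -0.77 to 0.67, limma adjusted p = 0.941), and its sign changed when Pich-KO sample 1 or Pich-WT sample 1 was left out (0.24 and 0.30). Fgg, the gamma chain gene, starts the same cluster and had 52.4 and 71.6 in Pich-KO against 91.4 and 76 in Pich-WT (log2 fold change -0.44, adjusted p = 0.405). None of the 3 chain genes passed the test. Whether the fibrinogen genes differ in response from the other members was not tested.

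Ahsg (ENSMUSG00000022868, chr16:22891277-22899449, plus strand) encodes fetuin-A, a fetal plasma glycoprotein that binds calcium phosphate. It had 62.2 and 87.5 in the Pich-KO samples against 174 and 182 in the Pich-WT samples. Both Pich-KO samples were far below the closely matched Pich-WT pair. Ahsg fell to 42.0% of the Pich-WT mean, with a log2 fold change of -1.26 (SE 0.26, 95% interval -1.86 to -0.66, limma adjusted p = 0.0128), the lowest of the 10.

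Sums over the members were also lower in both Pich-KO samples than in both Pich-WT samples. Summed normalized counts were 3286 and 2907 in Pich-KO against 5152 and 4556 in Pich-WT, and 1330, 1528, 2643 and 2349 without Afp. Per length, the order of members in Pich-WT was Afp (126 TPM), Alb (76.5), Apoa2 (69.4), Apoa1 (60.3), Rbp4 (32.7), Ttr (18.4), Ahsg (14.7), Fga (8.53), Fgb (7.58) and Apob (0.604). In Pich-KO the order was the same for the leading members, while Fgb and Fga stood above Ahsg. In Pich-WT the values of neighbours in this order overlapped between Apoa2 and Apoa1 and between Fga and Fgb.

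**Figure D3:**
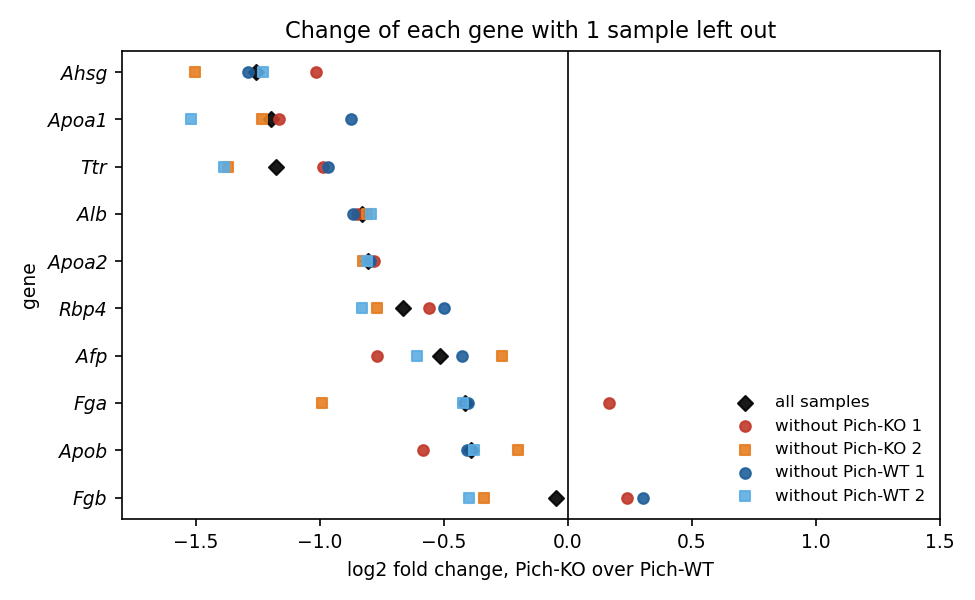
Log2 fold change of each plasma protein gene with all samples and with each sample left out. Values stay below 0 for 8 genes, and cross 0 for Fga and Fgb.

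The further plasma protein genes were mixed. Of 45 further secreted plasma protein genes, 44 were in the table and 43 were tested, of which 5 were lower, 1 was higher and 37 did not pass. Their median log2 fold change was -0.34. Apoe, the apolipoprotein of remnant particles that macrophages also make, fell from 35900 and 29871 in Pich-WT to 4449 and 2959 in Pich-KO (log2 fold change -3.17, limma adjusted p = 4.48e-05). Serpina1b, an alpha-1-antitrypsin gene with near-identical copies that reads could be split among, had 62.2 and 50 in Pich-KO against 141 and 117 in Pich-WT (adjusted p = 0.0204).

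More genes of this set passed the test in both directions. Trf, the gene of transferrin, the iron carrier of plasma, fell from 222 and 246 to 41.4 and 59.1 (log2 fold change -2.22, adjusted p = 0.0011). Apoc1 and Itih3, for a small apolipoprotein and a hyaluronan-binding protein, were the other 2 that fell. Hp, the gene of haptoglobin, which binds free hemoglobin, rose from 370 and 315 to 701 and 2106 (log2 fold change 1.83, adjusted p = 0.0217), with a wide gap between the Pich-KO samples. Summed counts of the set without Apoe were 2888 and 4171 in Pich-KO against 3765 and 3070 in Pich-WT, so the groups overlapped once that gene was removed. Hp was still in these sums, with its 701 and 2106 in Pich-KO against 370 and 315 in Pich-WT. Sums without both genes were not taken, so the overlap does not describe the rest of the set.

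Of 22 liver transcription factor genes, 8 were lower and the other 14 did not pass (median log2 fold change -0.86). Hnf4a, a nuclear receptor needed for hepatocyte identity, fell from 364 and 332 to 163 and 84.1 (log2 fold change -1.56, limma adjusted p = 0.0102). Cebpa, which acts in hepatocytes and in myeloid progenitors, fell from 1138 and 1122 to 462 and 438 (log2 fold change -1.33, adjusted p = 0.0005). Gata4, also made by liver sinusoidal endothelium, fell most, from 1984 and 1314 to 122 and 29.6.

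Factors tied to Afp itself were split. Zbtb20, a repressor of Afp after birth, fell from 199 and 243 to 72 and 68.2 (log2 fold change -1.64, limma adjusted p = 0.0024). Zhx2, another repressor of Afp after birth, had 76.3 and 68.2 in Pich-KO against 108 and 63 in Pich-WT (adjusted p = 0.770). Foxa2, at 7.63 and 1.14 in Pich-KO against 6.25 and 1 in Pich-WT, was near the limit of detection. Prox1, at 22.9 and 21.6 in Pich-KO against 20.3 and 24 in Pich-WT, did not pass the test either.

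The hepatoblast label was checked on 14 surface and epithelial marker genes, of which 2 were lower, 1 was higher and 11 did not pass (median log2 fold change -0.26). Dlk1, a surface protein by which hepatoblasts are often sorted, had 648 and 446 in Pich-KO against 513 and 484 in Pich-WT (limma adjusted p = 0.783). Gpc3, a fetal liver glypican, rose from 175 and 162 to 501 and 361 (log2 fold change 1.33, adjusted p = 0.0041). The 2 lower genes were Spint1 (log2 fold change -1.76, adjusted p = 0.0444) and Anpep (log2 fold change -1.62, adjusted p = 0.0034). Spint2 had the highest mean of the 14, at 890 and 804 in Pich-KO against 1067 and 1273 in Pich-WT. Spint2 did not pass the test (log2 fold change -0.46, adjusted p = 0.0653). Krt19 was at 3.27, 0, 0.782 and 2 and Epcam at 22.9, 11.4, 17.2 and 21, in the order Pich-KO then Pich-WT. Krt18, an epithelial keratin gene, had 214 and 232 in Pich-KO against 285 and 263 in Pich-WT (adjusted p = 0.354), and Krt19 was the only 1 of the 14 with at most 3 reads in every sample.

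Among 22 hepatic metabolic enzyme genes 5 were lower, 1 was higher and 16 did not pass (median log2 fold change -0.56). Cyp27a1, a sterol hydroxylase of bile acid synthesis also found in macrophages, fell from 618 and 642 to 116 and 118 (log2 fold change -2.42, limma adjusted p = 0.0001). Ass1, a urea cycle enzyme gene, rose from 477 and 386 to 1186 and 1213 (log2 fold change 1.48, adjusted p = 0.0005). Asl, which acts next to it in the cycle, had 635 and 710 in Pich-KO against 824 and 764 in Pich-WT (adjusted p = 0.323).

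Receptors that bind the plasma proteins were measured in the same cells. Of 11 genes, 4 were lower and the other 7 did not pass (median log2 fold change -0.77). Fcgrt, whose receptor rescues albumin and immunoglobulin G from breakdown, fell from 4508 and 3858 to 194 and 186 (log2 fold change -4.45, limma adjusted p = 6.18e-06). Itgb2 and Itgam, the chains of a leukocyte integrin that binds fibrinogen, fell as well, by 0.77 and 1.28 on the log2 scale. Tfrc, the transferrin receptor gene, had 2611 and 2919 in Pich-KO against 2574 and 2084 in Pich-WT (adjusted p = 0.252).

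Macrophage, endothelial and erythroid markers were lower in Pich-KO together with the plasma protein genes, while stellate markers were mixed and 0 of them were called lower. All 16 macrophage markers were lower, with a summed normalized count of 10712 and 8971 in Pich-KO against 86257 and 93416 in Pich-WT. All 12 endothelial markers were lower (4202 and 2238 against 47967 and 32743). Of 13 erythroid markers, 11 were lower and 2 did not pass, and the sum was 33236 and 35205 against 199315 and 140178. Every macrophage and endothelial marker was above 0 in both Pich-WT samples, and Vsig4 was at 0 in Pich-KO sample 2.

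Sums of the macrophage and endothelial markers differed between the groups by more than those of the plasma protein genes. The ratio of group sums, Pich-KO over Pich-WT, was 0.110 for macrophage markers, 0.0798 for endothelial markers, 0.202 for erythroid markers and 0.638 for the 10 plasma protein genes. The 14 stellate and mesenchymal markers summed to 1274 and 764 against 692 and 424, and of the 13 tested Col1a1 was higher and 12 did not pass. Log2 fold changes of these 13 ran from -2.34 to 1.40, so the sum does not stand for each marker. Among 14 stem and progenitor markers, 5 were lower, 1 was higher and 8 did not pass. The lower ones were Procr, Hlf, Mecom, Slamf1 and Gata2. Procr fell most, at 76.3 and 38.6 in Pich-KO against 362 and 460 in Pich-WT (log2 fold change -2.88, limma adjusted p = 0.00087). Gata2 fell least of these 5 (log2 fold change -0.58, adjusted p = 0.0317). The higher one was Ly6a, the gene of Sca-1, at 3586 and 2978 against 901 and 1061 (log2 fold change 1.74, limma adjusted p = 0.0002), and Kit had 4447 and 2772 against 2328 and 2513 (adjusted p = 0.114). These markers' part in the fall of the plasma protein genes was not tested.

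**Figure D4:**
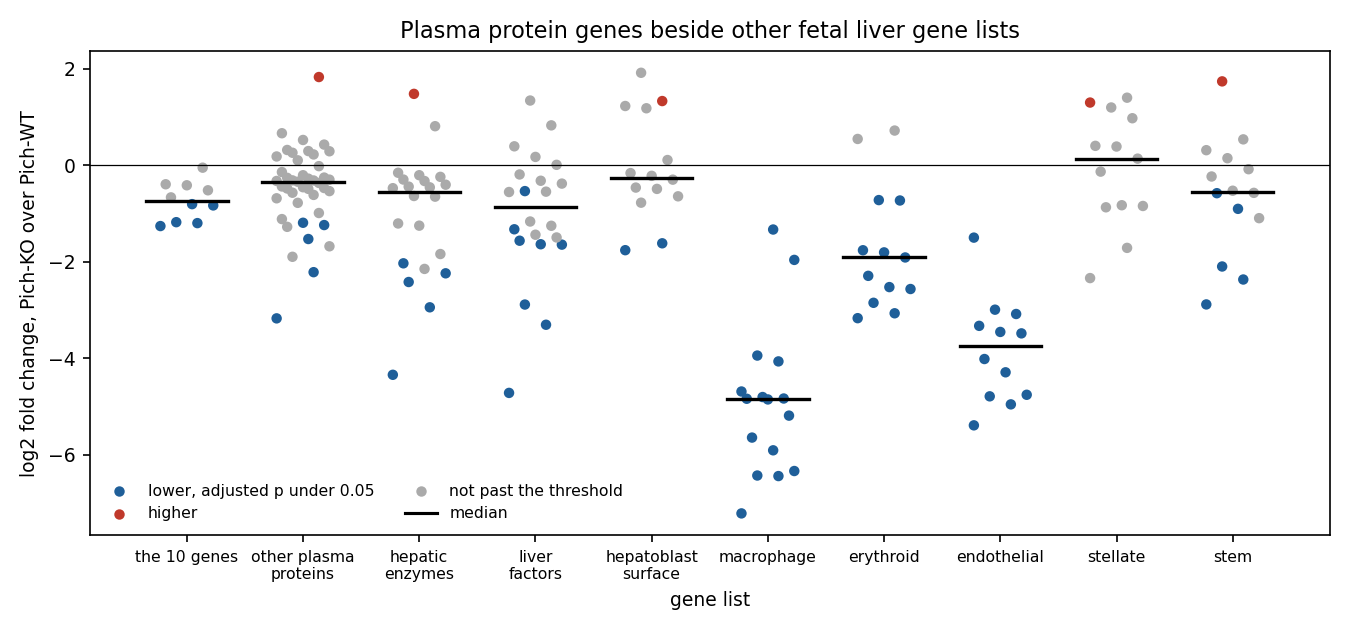
Log2 fold changes in Pich-KO over Pich-WT for each gene of the plasma protein set and of the other gene lists, with a line at each list's median. The 10 plasma protein genes lie between -1.26 and -0.05, the macrophage and endothelial lists lie lower with medians of -4.85 and -3.75, and the stellate list has a median of 0.14.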

How the data were processed

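LSK cells sorted from fetal liver were profiled by RNA sequencing (TruSeq kit, strand not given in the sources used here) for 2 samples of each genotype. The authors deposited 1 table of normalized signal, read counts per gene divided by a size factor for each sample. It also holds the authors' own comparison (log2 fold changes, p-values and adjusted p-values), which was not used. The submitters' processing notes name Bowtie 0.12.2 and the builds mm8 and mm9, while 97.8% of 39163 shared genes have the start and end of GENCODE M21 (GRCm38), the build of the coordinates printed here. The counter is not given in the sources used here. For 8 of the 10 members both ends were the same.

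Values were fitted with limma 3.58.1 in R 4.3.3 on log2(value + 1), with the variance prior as a trend on the mean, for 32428 genes with a mean of at least 1, and adjusted by Benjamini-Hochberg at 0.05. The design planned a count test for raw counts, and this fit for normalized values. Dividing by the smallest step of each sample gave whole reads for 100% of values (tolerance 0.001 reads), and these entered edgeR 4.0.16 and DESeq2 1.42.0 as alternatives and the per-length levels (TPM). Other alternatives were upper-quartile scaling, a pseudocount of 0.1, filters, no variance trend, a replicate block, a minimum log2 change of 1 and leaving out each sample. Reads of replicates differed by more than counting error (chi-square over its degrees of freedom, 17.7 for Pich-KO and 9.54 for Pich-WT). Members, lists and tests were chosen with earlier results of these data known. Genes named were all members, from each list the 3 most abundant and the extremes past the threshold, chosen liver factors, Kit and Ly6a, cluster neighbours and the 10 nearest in pattern. Not all of these are printed. Apobec1, Apoc1, Epcam, Itgam, Itih3, Krt18, Krt19, Mttp, Serpina1a, Serpina1b, Trf and Vsig4 fall outside that rule and were named after their values were seen. The same holds for Anpep, Gata2, Hlf, Mecom and Slamf1. Apoc3 and Ahsp were not analysed here, and some genes of the lists are not reported here. The only genes overlapping members were antisense genes in Afp and Ahsg, with 4 and 5 reads over all samples. Promoter windows came from RefSeq (GRCm38.p6) and matched 9 members, not Ttr. The fits were tested on simulated data whose replicate spread was set alike for every gene, not estimated from these samples. That test does not check the calls made here.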

Additional observations from a re-analysis of the deposited data

How the results depend on the processing

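With the settings as reported, 2459 genes rose and 3113 fell, 5 of them members. Without a variance trend 0 were higher and 0 lower, and 0 members were lower, with 3343, 4034 and 5 at an unadjusted p under 0.05, and edgeR called 3097 higher and 3436 lower. With a minimum log2 change of 1, 901 genes were higher and 3 members lower, fewer by construction. Without 1 sample, 0 to 548 genes were higher, 0 to 1193 lower and 0 members lower. Such a fit leaves 1 sample in a group, assumed to vary like the other group. The counts of 548 and 1193 came without Pich-KO sample 1, and the other 3 fits called 0 genes. The log2 fold change then ranged from -0.99 to 0.16 for Fga and from -0.40 to 0.30 for Fgb, and the cause was not tested. Members lower numbered 5 by edgeR, upper-quartile scaling and the smaller pseudocount, 6 by DESeq2 and the filter of 10 reads, and 4 without a filter. The 90 other values of members, outside the fits without 1 sample, were all negative, but many of them repeat the main fit. The filters, dropping the variance trend, the replicate block and the minimum log2 change leave its log2 fold changes as they are. Only the smaller pseudocount, the edgeR fits and DESeq2 could have changed a sign.

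Same-numbered samples did not deviate together (r = 0.012 across 11794 genes, which are not independent), so the numbers were not read as pairs. A replicate block gave 3122 genes higher and 3874 lower, with 7 members lower, adding Afp and Rbp4, and 0 higher.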

Other observations

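Over the 4 samples, the genes whose centred log2 values lay nearest to the median profile of the 10 plasma protein genes were compared among 16270 genes with a mean normalized count of at least 10. The nearest was Il16, an interleukin gene of blood cells, at a root mean square distance of 0.046 on the log2 scale, and the 10 nearest ended with Commd8 at 0.053. None of these 10 was in any of the gene lists used. The nearest other hepatic gene was Serpina1a, at rank 409 and a distance of 0.122. Among the members themselves Apoa2 lay nearest to the median profile, at 0.08, and Fgb furthest, at 0.44.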
